A study of Mus musculus with 9 samples.

Results

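The libraries described here were made from RFP oocytes, mature mouse eggs that carried the unrecombined form of a fluorescent Cre reporter. All libraries labelled RFP were taken, which are 3 of the 9 libraries and 1 of the 3 groups in the series. The donors were Sycp3CreERT2/+; Rosa26nT-nG/+ females of mixed genetic background, aged 4 weeks. They carried a tamoxifen-inducible Cre in the locus of the meiotic gene Sycp3 together with a reporter that makes nuclear tdTomato before recombination and nuclear GFP after it. Females received 5 IU of PMSG and, 48 h later, 5 IU of hCG. Eggs were collected 13 h after hCG. Hyaluronidase removed the cumulus cells, and the eggs were then chosen by hand for their fluorescence. The RFP pools held 87, 88 and 100 oocytes, and these sizes are given for the group rather than for single libraries. The females also carried the Cre allele, so these eggs are not wild type, and whether and when tamoxifen was given is not stated in the sources used here. The labels do not say whether the pools came from separate animals, so the spreads below measure only the difference between these 3 libraries, which may be technical.

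An egg arrested at metaphase of the second meiotic division makes almost no new RNA. It lives on transcripts that were made and stored while the oocyte grew, many of them held with short poly(A) tails, and these support completion of meiosis, fertilisation and the first cell division until the embryonic genome is switched on. Poly(A) capture counts such messages by tail as well as by number, so a level below is a level of captured RNA. The values below describe which genes take most of the reads of such eggs, which classes of RNA are present and which genes have no reads. No groups were compared and no test was made.

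The libraries held 26391781, 22646401 and 26938566 counts over 29099 listed genes, in the order RFP 1, RFP 2 and RFP 3. Levels are given as counts per 1000000 counts of the library (CPM), which is a share of the reads, and as CPM per kilobase of the deposited gene length (RPKM) wherever genes are set against each other. The mean is given with the SD over the 3 libraries (n = 3). At these totals a gene at 1 CPM rests on 22.6 to 26.9 reads. A gene with 0 counts in a library has an upper limit of 3 counts, which is 0.111 to 0.132 CPM, and this limit covers counting error only because the reads carry no molecular identifiers.

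The labels were first checked against the reporters and the markers of the oocyte. tdTomato was counted 94, 57 and 46 times in RFP 1, 2 and 3. eGFP was counted 0, 8 and 16 times, so a few reads of the recombined form were present in RFP 2 and RFP 3. Zp3, which encodes a zona pellucida glycoprotein, had 239, 265 and 227 CPM. Gdf9, the growth factor through which the oocyte acts on granulosa cells, had 1510, 1552 and 1532 CPM, a coefficient of variation of 1.36%. Oosp1, an oocyte-secreted protein, had 1184, 1250 and 872 CPM, lowest in RFP 3. All 3 markers were thus high in every library.

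Traces of other cells differed between the libraries. Of 16 listed cumulus and granulosa markers, 10 reached 1 CPM on average and 6 without RFP 2, and the summed level of all 16 was 203, 259 and 182 CPM in RFP 1, 2 and 3. Most of it was Serpine2, at 174, 184 and 165 CPM, much alike in the 3 libraries. The genes of the expanding cumulus matrix stood higher in RFP 2. Tnfaip6, a hyaluronan-binding matrix protein, had 28, 249 and 0 counts, and Ptx3, which crosslinks that matrix, had 18, 221 and 0. Inha, the inhibin alpha subunit, had 12, 144 and 0 counts. Per length Serpine2, Cyp19a1 and Tnfaip6 were the highest of the 16 markers, and only Amh and Lhcgr had 0 counts in every library. RFP 1 stood apart in stroma, theca and oviduct markers, with a summed 8.71, 1.19 and 0.631 CPM over 8 listed genes. None of the 8 reached 1 CPM on average over the 3 libraries, 2 did without RFP 2 and 3 without RFP 3. Col3a1, a fibrillar collagen, had 75 counts in RFP 1 and 0 in the others. Of 5 listed blood, immune and vessel markers only Pecam1 reached 1 CPM, at 41.9, 37.4 and 45.6 CPM, while Cd74 had 0 counts. The part of these cells in the values below was not tested. Further values with a library left out are given beside single results.

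Transcripts of 12792, 12932 and 12700 genes were at 1 CPM or more, a mean of 12808 ± 117. Without RFP 2, the library with the most genes and the higher cumulus genes, the mean was 12746. In the mean of the libraries 12820 genes (44.1% of those listed) reached 1 CPM, of which 11129 were protein coding, and 11913 genes did so in each library. The 11129 are 61.2% of the 18175 protein-coding genes listed. The lowest total of a listed gene over the 6 libraries of the table was 2 counts, so shares of listed genes leave out genes below that total. Another 940 protein-coding genes had 0 counts in all 3 RFP libraries, and 2531 had 3 or fewer in each. Only 105 genes stood at 1000 CPM or more, and they held 21% ± 0.670 of the reads. Between 100 and 1000 CPM there were 2189 genes with 56.4% ± 0.746, and between 10 and 100 CPM 5390 genes with 20.4% ± 0.0630. The 5136 genes between 1 and 10 CPM together held 2.02% ± 0.0756.

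The reads were spread over many genes. The top gene of each library held 1.73% ± 0.423 of them, the top 10 genes 6.96% ± 0.455, the top 100 genes 20.5% ± 0.611 and the top 1000 genes 58.3% ± 0.134. A share of 50% of the reads was reached with 678, 674 and 688 genes. A share of 90% took 4220, 4273 and 4211 genes, and a share of 99% took 9484, 9646 and 9411. At rank 100 the libraries had 1016, 1000.3 and 1006 CPM. They lay apart at both ends of the curve, with 14821, 22166 and 14859 CPM at rank 1 and 0.0379, 0.0883 and 0.0742 CPM at rank 20000, where a gene has at most 2 counts.

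**Figure D1:**
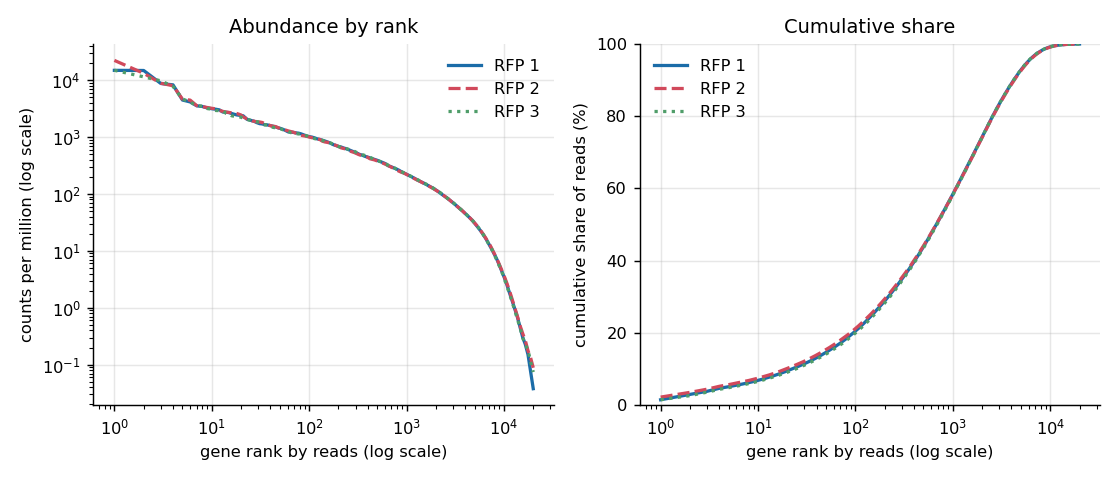
Abundance by rank in RFP 1, RFP 2 and RFP 3. Left, CPM of the gene at each rank within each library (both axes logarithmic). Right, cumulative share of reads in percent against rank (logarithmic). The 3 lines lie close together at rank 100, separate at the first ranks and at rank 20000, and pass 50% of the reads between 674 and 688 genes.

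The gene with the most reads in the mean, and in RFP 2 and RFP 3, was Gm23935 (ENSMUSG00000076258), a 57-base entry on chromosome 16, with 388851, 501982 and 400269 counts, or 14734, 22166 and 14859 CPM. RFP 2 was the highest, and RFP 1 and RFP 3 lay close together. The annotation calls it a miRNA but gives it no miRNA name, and it lies inside Zc3h7a on the opposite strand. Whether its reads stem from such a gene or from another RNA that holds this sequence, such as nuclear ribosomal RNA, was not tested, so the share of the miRNA class below is only that of the annotation's label. An entry of identical sequence, Gm24270 (ENSMUSG00000076281), lies on chromosome 9 inside Peak1 on the same strand and had 9148, 9243 and 5571 counts. Gm24245 on chromosome 4, also of identical sequence, was not among the listed genes. Gm24187, which differs by 1 base, had 64, 159 and 100 counts. Their sequences follow because the assignment of 1.73% of all reads turns on them. They are from GENCODE M21 transcripts, on GRCm38, in 5′ to 3′ direction of the named strand, with the differing base in capitals.
Gm23935, chr16:11144125-11144181, plus strand: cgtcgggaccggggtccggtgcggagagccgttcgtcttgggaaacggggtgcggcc
Gm24270, chr9:56223715-56223771, minus strand: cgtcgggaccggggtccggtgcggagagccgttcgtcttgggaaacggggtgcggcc
Gm24245, chr4:139338304-139338360, plus strand: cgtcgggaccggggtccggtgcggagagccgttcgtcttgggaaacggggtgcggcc
Gm24187, chr13:9834469-9834525, minus strand: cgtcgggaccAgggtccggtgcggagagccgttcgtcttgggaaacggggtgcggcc
Counting positions from 1 at the 5′ end, Gm24187 carries G11A relative to Gm23935. Reads inside the identical stretch cannot be told apart between these entries, and how the authors' counting placed them is not given in the sources used here. All other genes of the miRNA class together held 0.0345% of the remaining reads.

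Next in the mean, and first in RFP 1, came mt-Rnr2, the large mitochondrial ribosomal RNA, with 14821, 13147 and 11390 CPM, highest in RFP 1 and lowest in RFP 3. The small one, mt-Rnr1, ranked 6 with 4465, 4447 and 4130 CPM. The other 17 of the top 20 genes were protein coding.

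**Figure D2:**
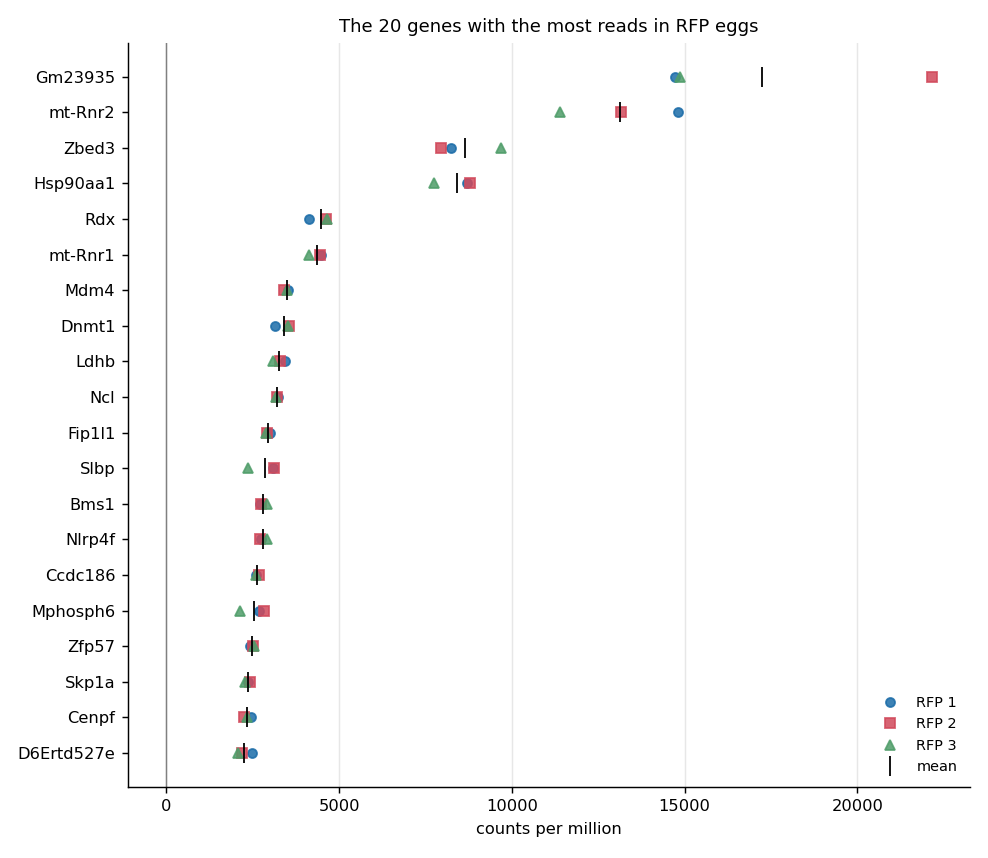
CPM of the 20 genes with the most reads, from 0 on a linear axis, with a point for each of RFP 1, RFP 2 and RFP 3 and a bar for their mean. For 15 of the 20 the coefficient of variation is under 10%, and the points of Gm23935 and mt-Rnr2 lie widest apart.

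Zbed3, an Axin-interacting protein counted with the subcortical maternal complex, had 8244, 7953 and 9696 CPM, highest in RFP 3. Hsp90aa1, the inducible cytosolic HSP90 chaperone, had 8709, 8803 and 7741 CPM. These were the protein-coding genes with the most reads, and their order was not firm. Zbed3 led in the mean and in RFP 3, Hsp90aa1 led in RFP 1 and RFP 2, and without RFP 3 their means were 8099 and 8756 CPM. Rdx encodes radixin, which links the plasma membrane to actin, and had 4132, 4624 and 4649 CPM. Regulators of nuclear processes came next. Mdm4, an inhibitor of p53, had 3536, 3416 and 3487 CPM, and Dnmt1, the maintenance DNA methyltransferase, had 3138, 3558 and 3535. Ldhb, the heart-type lactate dehydrogenase subunit, had 3437, 3297 and 3078 CPM. Ncl, nucleolin, had 3237, 3190 and 3161 CPM, the smallest spread of the 20 (coefficient of variation 1.21%).

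Several of the remaining top genes act on RNA or on chromosomes. Fip1l1, a subunit of the polyadenylation machinery, had 2938 ± 51.5 CPM. Slbp, which binds the stem-loop of histone messages, had 3076, 3124 and 2360 CPM, lowest in RFP 3. Bms1, a GTPase of ribosome assembly, had 2791 ± 98.9 CPM and Mphosph6, a cofactor of the RNA exosome, had 2685, 2819 and 2130, again lowest in RFP 3. Zfp57, a KRAB zinc-finger protein that keeps methylation at imprinted regions, had 2493 ± 71.9 CPM. Cenpf, a kinetochore protein, had 2342 ± 94.5 CPM and Skp1a, the adaptor of SCF ubiquitin ligases, had 2354 ± 78.1. Nlrp4f, an oocyte NLR gene, had 2790 ± 116 CPM. Ccdc186 and D6Ertd527e had 2622 ± 46.1 and 2248 ± 208 CPM.

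A share of reads favours long transcripts, and the order changed once the deposited length was divided out. Only 9 genes were in the top 20 by both measures. Mdm4, with a deposited length of 14798 bases, went from rank 7 by reads to rank 162 per length. Cenpf went from rank 19 to 288, Fip1l1 from 11 to 175 and Ncl from 10 to 99. For these genes the deposited length exceeds the longest GENCODE M21 transcript. That transcript has 7105 bases for Mdm4, 11130 for Cenpf (deposited 15433), 4987 for Fip1l1 (13122) and 8202 for Ncl (10188). A longer deposited length lowers the RPKM, and its part in these rank changes was not tested. Zbed3 at 3869 ± 418 RPKM and Hsp90aa1 at 2141 ± 150 were the highest protein-coding genes per length. Dppa3 (Stella), which protects maternal methylation in the zygote, had 2111 ± 295 RPKM. Ldhb had 2083 ± 115 RPKM and Npm2, the egg's nucleoplasmin and a histone chaperone, 1722 ± 68.1. Their neighbours in this order overlapped: Hsp90aa1, Dppa3 and Ldhb lay within 1 SD of each other, whereas Zbed3 lay above them and Npm2 below in the means. Gm813 followed at 1431 ± 120 RPKM, Oosp1 at 1134 ± 208, the spliceosomal Sm protein gene Snrpd1 at 1086 ± 133 and Nudc, a chaperone of the dynein pathway, at 1073 ± 151. These last 3 did not differ beyond their spread.

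Per-length levels of very short genes need care. Gm23935 alone took 46.3%, 55.7% and 47.9% of the length-scaled total, and Gm24270 ranked 3rd at 5623 ± 1810 RPKM. Rn7sk, the 7SK RNA that restrains transcription elongation and is not polyadenylated, had 1205, 2641 and 655 CPM, with RFP 2 highest and RFP 3 lowest. Among genes of 200 bp or more, the top 100 held 28.6% ± 1.30 of the length-scaled total and 469 ± 36.7 genes held 50% of it.

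Some top genes have close copies, which bears on how exactly their level is known. For each gene, every 50-base window of its longest GENCODE M21 transcript was looked up in the transcripts of all other genes, on both strands. Other transcripts of a gene were not looked up and can share a different part. For Zbed3, Rdx, Dnmt1, Fip1l1, Bms1, Ccdc186, Zfp57, D6Ertd527e, Npm2, Gm813, Gdf9, Zp3 and Oosp1, 0 windows were shared. For Hsp90aa1 58.5% of the windows occurred in another gene, for Nudc 32.8%, for Ldhb 27%, for Dppa3 17.7% and for Mdm4 15.5%. The leading copies of Nudc, Dppa3 and Mdm4 are named as their pseudogenes (Nudc-ps1, Dppa3-ps and Mdm4-ps). Gm1821, a transcribed pseudogene with 2391, 1842 and 1920 CPM, shares 88.2% of its windows, mostly with the polyubiquitin gene Ubb. Ubb itself had 1411, 1097 and 836 CPM and shares 55.4%, so the split between these 2 genes is uncertain.

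By annotated biotype, protein-coding genes held 93.3% of the reads in RFP 1, 92.5% in RFP 2 and 94.0% in RFP 3. The mean was 93.3% ± 0.742. The miRNA class held 1.76% because of Gm23935, with 1.51%, 2.26% and 1.51% in the libraries, and only 5 of its 152 listed genes reached 1 CPM. Long noncoding genes held 1.53% ± 0.0834 (912 of 6229 genes at 1 CPM or more), and pseudogenes of every kind held 1.5% ± 0.0990 (739 of 4046). Small nucleolar, nuclear and Cajal-body RNAs held 0.00949%, with 16 of 292 at 1 CPM or more.

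**Figure D3:**
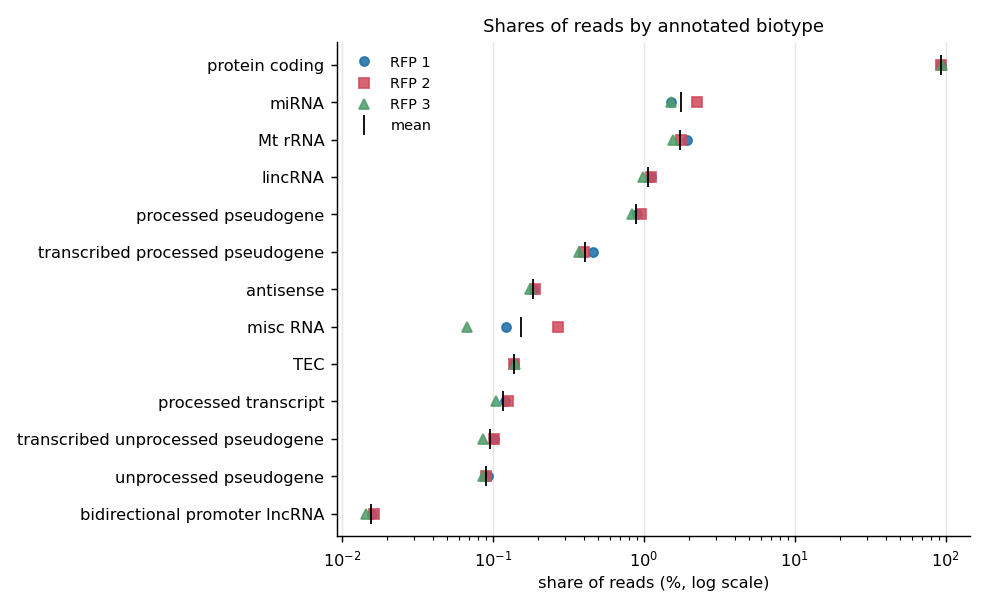
Share of reads in percent (logarithmic axis) for the 13 biotypes with the most reads, a point for each of RFP 1, RFP 2 and RFP 3 and a bar for the mean. Protein-coding genes stand near 93.3%, every other class is under 2.3%, and the libraries lie farthest apart in misc RNA, which is mostly Rn7sk.

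The share of long noncoding genes and pseudogenes was spread over many genes. Outside these classes single genes held more, with 1.73% of the reads in Gm23935, 1.31% in mt-Rnr2 and 0.435% in mt-Rnr1. The highest lincRNAs were C86187 with 1168 ± 22.5 CPM, 4933427D06Rik with 723 ± 17.3 and Gm1965 with 637 ± 23.8, each alike in the 3 libraries. Among antisense genes Gm14820 had 239 ± 5.57 CPM. Counting is not stated to use strand, so reads of an antisense gene cannot be told from those of its partner where they overlap. The processed pseudogenes were led by Gm11847 with 348 ± 54.6 CPM, and Gm45663 led the genes of the class TEC with 324 ± 65.9. Rpl37rt, a retrocopy of Rpl37 that shares 42.5% of its windows with other genes, had 343, 446 and 298 CPM.

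Mitochondrially encoded genes held 2.50%, 2.24% and 2.04% of the reads, a mean of 2.26% ± 0.234, and 17 of the 33 listed reached 1 CPM. The ribosomal RNAs held 1.75% and the 13 protein-coding genes 0.512% ± 0.0523. The coding genes fell apart into high and low ones by RPKM. mt-Cytb, the cytochrome b gene of complex III, had 1036 ± 116 RPKM, the complex I gene mt-Nd1 692 ± 112 and the complex IV gene mt-Co1 514 ± 33.0. mt-Co3 of the same complex IV had 158, 107 and 100 counts, or 6.13 RPKM, mt-Co2 24.9 and mt-Atp6, of ATP synthase, 33.1. Genes whose sequence recurs in other annotated genes were mostly the low ones. Between 98% and 100% of the windows of mt-Co2, mt-Co3, mt-Atp6, mt-Nd3 and mt-Nd4l occurred in another gene, and their levels were 6.13 to 33.1 RPKM. For mt-Co1 the share was 51.1% and for mt-Nd4, at 287 RPKM, 62.2%. Of mt-Cytb, mt-Nd1 and mt-Nd6 0% occurred elsewhere, with levels of 692 to 1036 RPKM. mt-Atp8 had 0% shared windows and 15.9 RPKM. The part of these copies in the levels was not tested. mt-Nd6, at 940 ± 91.9 RPKM, spans positions 13552 to 14070 and overlaps mt-Nd5 on the other strand only up to position 13565. Without strand, reads of the opposite strand over mt-Nd6 cannot be told from its own.

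Gene groups of the egg were then read from lists of known members. All 3 zona pellucida genes were detected, with a summed 679 ± 31.9 CPM. Per length Zp3 had 184 ± 14.7 RPKM, Zp1 106 ± 2.85 and Zp2 83.1 ± 9.31. The 6 oocyte-secreted factors summed to 3865 ± 190 CPM. Oosp1 at 1134 RPKM and Gdf9 at 754 ± 10.3 led them, and Bmp15, the X-linked partner of Gdf9, had 285 ± 22.3 RPKM. Fgf8, a growth factor that acts on cumulus cells, had 97.3 RPKM.

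The subcortical maternal complex, a protein assembly under the egg's membrane that embryos need for their first cleavages, summed to 13217 ± 1179 CPM over 6 genes, of which Zbed3 made the larger part. Padi6, a deiminase-family protein of the cytoplasmic lattices, had 1714, 2083 and 2226 CPM and 793 ± 104 RPKM. Ooep, Tle6 and Nlrp5 had 291 ± 22.6, 286 ± 9.12 and 220 ± 14.3 RPKM. Ooep and Tle6 did not differ beyond their spread. Khdc3 (Filia) was the low member, with 220, 212 and 266 counts and 4.48 ± 0.382 RPKM. It shares 42.8% of its windows with Gm20509, and how reads of that stretch were counted is not given in the sources used here.

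The 10 oocyte NLRP genes, NLR-family members of which several are kept as maternal proteins, were all detected and summed to 6304 ± 75.5 CPM. They ranged from Nlrp4c at 11.1, 12.4 and 15.3 CPM to Nlrp4f at 2743, 2705 and 2921. The 11 listed PRAME-like oogenesins, a rodent family with near-identical copies, were all detected and summed to 4077 ± 212 CPM. E330021D16Rik led them with 1512, 1534 and 1395 CPM and 808 ± 40.8 RPKM, ahead of Oog3 at 303 RPKM and Gm10436 at 165. Gm2042, Oog1 and Gm10436 share 90.3%, 88.6% and 64.2% of their windows with other genes. AU018829 of this family was not found by name among the listed genes.

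The smaller homeobox and kinase-cofactor families were also present. Obox5 had 182 ± 14.8 RPKM, Obox1 119 and Obox2 69.2, and 4 of 6 listed Obox genes reached 1 CPM. Obox3 had 3, 16 and 0 counts, above the limit of 3 counts in RFP 2 alone. Obox6 had 0, 0 and 2 counts. All 6 Tcl1 family genes, which encode cofactors of the kinase AKT, were detected, with a summed 1132, 1035 and 796 CPM. RFP 3 was lowest, and so was Tcl1 itself at 789, 688 and 550 CPM.

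Genes listed as maternal effect factors, egg products that act in the embryo, numbered 14, all detected, with a summed 14889 ± 388 CPM. Dppa3 and Npm2 led them per length. H1foo, the oocyte linker histone, followed with 948 ± 101 RPKM, and Zar1l and Zar1, which bind stored messages, had 598 ± 98.6 and 226 ± 18.1. Trim28, the corepressor recruited by Zfp57, was lower with 87.3, 96.0 and 105 CPM and 23.1 RPKM. Hsf1, the heat-shock transcription factor, had 8.75 RPKM.

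Genes of metaphase arrest and the cell cycle were even across libraries, with 3345, 3366 and 3330 CPM summed over 16 genes, all detected. Bub1b, a spindle checkpoint kinase, had 276 ± 12.3 RPKM, the CDK subunit Cks2 had 211 ± 52.3 and Wee2, the oocyte kinase that inhibits CDK1, had 110 ± 2.52. Mos, the kinase of the cytostatic factor that holds the egg in metaphase, had 70.5, 74.0 and 66.1 CPM and 48.4 ± 2.71 RPKM. Cyclin B1 (Ccnb1) had 368, 400 and 356 CPM. Cks2 stood apart within the list, at 174, 159 and 105 CPM, lowest in RFP 3.

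The 19 genes of message storage and decay were all detected and summed to 7099 ± 225 CPM. Btg4, which brings the deadenylase to maternal messages for their clearance, led with 520 ± 55.9 RPKM. Lsm14b, a storage protein of oocyte messages, had 350 ± 41.0 and Eif4enif1, the eIF4E transporter, had 161. Ybx2 (MSY2), the germ-cell Y-box protein that stabilises stored messages, had 134 ± 12.8 RPKM. The decapping enzyme gene Dcp2 had 30.1 RPKM and its activator Dcp1a 139. Tut4 was low, with 25, 56 and 6 counts, while its relative Tut7, also a terminal uridylyltransferase, had 56.7, 55.9 and 58.9 CPM.

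**Figure D4:**
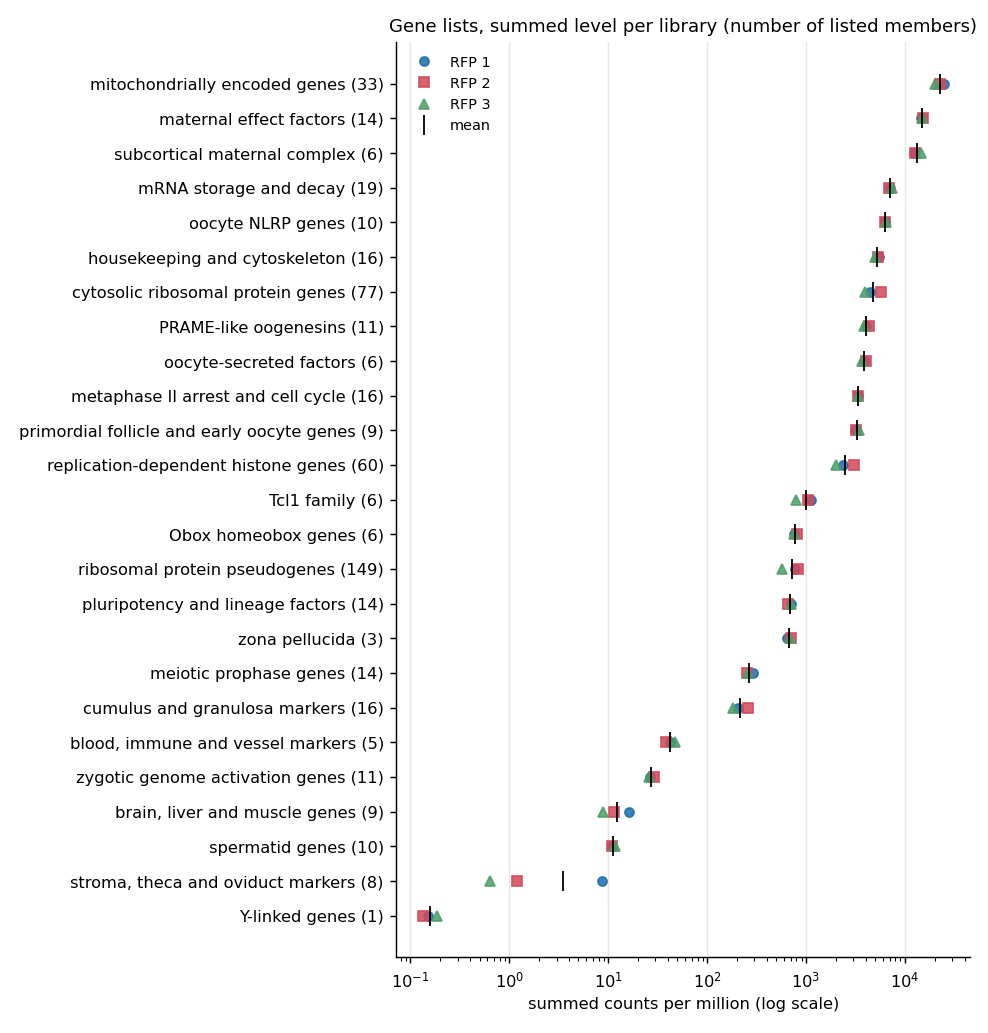
Summed CPM (logarithmic axis) of 25 gene lists, with the number of listed members in brackets, a point for each of RFP 1, RFP 2 and RFP 3 and a bar for the mean. Lists of egg genes run from about 679 to 14889 CPM with small spreads. Of the 25 lists, stroma, theca and oviduct markers show the widest spread, with RFP 1 highest. The list of X inactivation RNAs, with 2.35, 0.397 and 0 CPM, is not drawn.

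For 16 genes a relative of the same family was set beside them by RPKM. For 9 of the 14 pairs with a ratio in every library, the first-named gene was over 5 times the level of its relative in the mean. Padi6 was higher than Padi2 by 10.55 ± 0.17 on the log2 scale (SD, n = 3) and Btg4 higher than Btg2 by 7.03 ± 0.29. H1foo exceeded the somatic linker histone H1f0 by 4.76 ± 0.09, Pabpc1l exceeded the somatic poly(A)-binding protein gene Pabpc1 by 4.72 ± 0.39 and Wee2 exceeded Wee1 by 4.45 ± 0.16. Bcl2l10, a survival factor, exceeded Bcl2l1 by 4.18 ± 0.29, the oocyte cap-binding Eif4e1b exceeded Eif4e by 3.54 ± 0.09, and Npm2 exceeded Npm1 by 2.40 ± 0.33. The oocyte form was not the higher one throughout. Ybx2 was lower than Ybx1 (log2 ratio -1.45 ± 0.24) and the oocyte importin Kpna7 lower than Kpna2 (-1.05 ± 0.06), in each of the libraries. Zar1 and Zar1l are both counted above as maternal effect factors, and Zar1 was the lower one in each library (-1.39 ± 0.21). Actb and Actg1 differed by 0.45 ± 0.05 and the cyclins Ccnb1 and Ccnb2 by 0.29 ± 0.09.

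**Figure D5:**
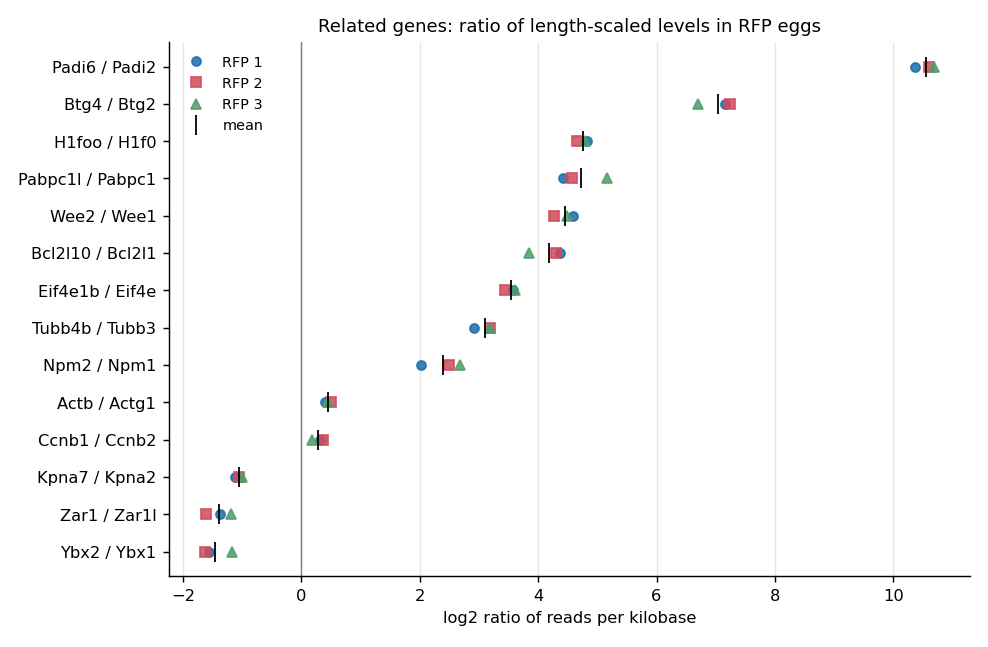
Log2 ratio of RPKM between the first- and second-named gene of 14 related pairs, a point for each of RFP 1, RFP 2 and RFP 3 and a bar for the mean; the vertical line marks equal levels. The points of a pair lie on the same side of the line for all 14 pairs, from Padi6 over Padi2 at 10.55 to Ybx2 over Ybx1 at -1.45.

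For the other pairs a library had 0 counts of the relative. Lactate dehydrogenase was almost wholly of the B type, with 2083 RPKM of Ldhb and 40, 89 and 0 counts of Ldha, the muscle-type subunit. Nlrp3, the inflammasome sensor, had 6, 4 and 0 counts against 343 ± 29.0 RPKM of Nlrp14.

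Common housekeeping genes were uneven. Tubb4b, a beta tubulin, had 684 ± 42.1 RPKM, while Actb had 60.2 ± 2.47 and the antigen-presentation gene B2m 15.9 ± 3.17. Gapdh, the glycolytic enzyme gene often used as a reference, had 2, 7 and 10 counts, or 0.0758, 0.309 and 0.371 CPM. Gapdh was the 1 of 16 listed members under 1 CPM. Of its longest transcript, with 3289 bases, 27.8% of the windows occur in other genes. Shorter transcripts of Gapdh were not looked up and can share a different part. The 121 listed Gapdh-like pseudogenes summed to 50.3 CPM on average (47.4 to 54.2), against 0.252 ± 0.156 CPM counted to Gapdh, and 9 of them reached 1 CPM. Pgk1, the next kinase of glycolysis, had 20.4, 18.9 and 19.5 CPM.

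Ribosomal protein genes, 75 of 77 at 1 CPM or more, summed to 4383, 5759 and 3957 CPM, with RFP 2 highest. Rpl19 led with 281 ± 33.0 RPKM, and 79.3% of its windows occur in 18 other genes, led by Rpl19-ps11. Another 149 ribosomal protein pseudogenes are listed, of which 49 reached 1 CPM and 14 had 0 counts, with a summed 764.4, 820.3 and 576.9 CPM. Replication-dependent histone genes, whose messages end in a stem-loop and mostly lack a poly(A) tail, were found at 1 CPM or more for 45 of 60, with 2361, 3064 and 2017 CPM. Hist1h1a had 713 ± 117 RPKM and the germ-cell variant Hist1h2ba 689 ± 187. In both lists RFP 2 was the highest library and RFP 3 the lowest, as for Rn7sk, and the cumulus markers stood in the same order. What these shared orders rest on was not tested.

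The transcripts missing from the egg were read the same way. Of the early-embryo genes that are switched on after fertilisation, 3 of 11 listed reached 1 CPM. Tcstv1 had 18.1, 22.2 and 19.2 CPM, Zscan4d 3.79, 3.22 and 3.53, and Tcstv3 1.62 on average. Zscan4e had 0 counts, and Zscan4c had 27, 1 and 0. Tcstv1 shares 16.8% of its windows with other genes, Gm21818 and Tcstv3 among the leading ones. Shared windows of the Zscan4 genes were not looked up, so how reads divide between these members is not known. Zfp352 and Tdpoz4 were not found by name among the listed genes. Pluripotency and lineage factors differed among themselves. Pou5f1 (OCT4) had 251, 231 and 223 CPM, Sall4 310, 283 and 348, and Esrrb 75, 82.1 and 74.7. Nanog had 0, 0 and 4 counts and Sox2 13, 24 and 29.

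Genes of earlier oocyte stages were partly still present. Nobox, a transcription factor of early follicles, had 408, 403 and 410 CPM, Foxo3, which keeps primordial follicles at rest, had 739, 764 and 958, and Figla, the activator of the zona genes, had 19.7, 21.8 and 17.9. Sohlh1 was the 1 of 9 under 1 CPM. Of the meiotic prophase genes 11 of 14 listed reached 1 CPM. Smc1b, the meiotic cohesin subunit, had 75.4, 66.2 and 74.1 CPM and Sycp2, of the synaptonemal complex, 72.1, 64.7 and 71.9. Sycp3, whose locus carries the Cre in these mice, had 544, 277 and 322 counts, or 20.6, 12.2 and 12 CPM. Stra8, which starts meiosis, and Spo11, which makes its DNA breaks, had 0 counts in all libraries. Rec8 was not found by name among the listed genes.

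Genes of other lineages were mostly low. Of 10 listed spermatid genes 3 reached 1 CPM. Prm2, a protamine, had 196, 144 and 201 counts, while Prm1 had 0, 2 and 0, and Tssk6 and Izumo1 had 0. The Y-linked Kdm5d had 4, 3 and 5 counts, and Xist, the RNA of X inactivation, had 62, 9 and 0. Of 9 listed brain, liver and muscle genes only Myh7 (11, 5.56 and 4.68 CPM) and Mbp (4.43, 5.03 and 2.78) reached 1 CPM, and Alb had 0 counts. Across all gene lists of this report 24 listed members had 0 counts in all 3 libraries. Of these, 14 were ribosomal protein pseudogenes and 1 was the mitochondrial gene mt-Tk. Further members of the lists were not found among the listed genes, such as Ddx3y, Uty and Eif2s3y of 4 Y-linked genes. Tnp1, Tnp2, Acr and Pgk2 of 14 spermatid genes were not found either. Whether these fell below the listing total or stand under another name was not tested.

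Library spread set how firmly single levels are known. The median coefficient of variation was 7.36% for genes at 1000 CPM or more, 7.22% from 100 to 1000, 10.8% from 10 to 100, 24.0% from 1 to 10 and 75.6% from 0.1 to 1 CPM. Counting error alone would give 0.536%, 1.45%, 3.55%, 11.1% and 38.7% in the same order, so the spread exceeded it in every band. Across genes at 1 CPM or more, which are not independent replicates, Spearman's rho was 0.984 between RFP 1 and 2, 0.982 between RFP 1 and 3 and 0.980 between RFP 2 and 3. Without RFP 3 the median coefficient of variation from 100 to 1000 CPM was 5.00%.

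Among genes at 10 CPM or more on average, the 10 with the largest coefficient of variation did not share 1 pattern. Hist1h2al, annotated as a processed pseudogene, had 2, 3072 and 8 counts, a coefficient of variation of 172%, so nearly all its reads came from RFP 2. Rpl26 had 1932, 2646 and 176 counts and the lincRNA Gm26917 had 4466, 4319 and 87, both low in RFP 3. Hmgn1, a nucleosome-binding protein, had 4505, 4446 and 18542 counts and was high in RFP 3, while Gm8666, a pseudogene that shares windows with it, had 312, 534 and 90. Ephx2, the soluble epoxide hydrolase, had 388, 742 and 17 counts and Lsm5 554, 628 and 51. Dclk1, a microtubule-associated kinase, was highest in RFP 1 with 1642, 500 and 275 counts. Btn1a1 had 3, 535 and 313 counts and the small RNA Scarna6 201, 672 and 121. Of these 10 genes 8 were highest in RFP 2 and 7 lowest in RFP 3.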

How the data were processed

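Poly(A) RNA of pooled eggs was captured on oligo-dT beads, fragmented and reverse transcribed with random hexamers, and both fragment ends were read, per the labels' protocols. The submitters' processing notes name fastp, HISAT2 2.0.5, featureCounts 1.5.0-p3, DESeq2 1.20.0 and the build mm10, without their roles. Strand and multi-mapping settings of the counting are not given in the sources used here. The authors deposited 3 tables of 6 libraries each with raw counts per gene, a normalised signal, FPKM, gene length, log2 fold change and p-values. The RFP counts of the GFP Low against RFP table were used. They equal those of the GFP High against RFP table for all 25737 shared genes. The authors' deposited FPKM served as an alternative for related pairs. The deposited signal, log2 fold changes and p-values were not used.

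CPM is the count divided by the sum over all listed genes. RPKM divides CPM by the deposited gene length in kilobases, which for some genes exceeds their longest annotated transcript. Ranks per length used the same values scaled to an equal sum in each library (TPM), which can exchange genes of nearly equal RPKM. Of 29099 identifiers 29082 were in GENCODE M21 (GRCm38). No test between groups was made, since the libraries are 1 group. The code for shares, ranks and spreads was checked on simulated counts with known values. Named were the 20 highest genes by CPM and per length, the 3 markers, the 3 highest of each biotype holding at least 0.05% of reads, list leaders and absent members, related pairs, the 10 most variable genes at 10 CPM or more, and the reporters. Other genes were named after their values were seen. The members and lists were chosen with earlier results of these data known. Library pairs differed by 19.3 to 28.9 chi-square per degree of freedom, so none was counted as a repeat. Python 3.11.15, numpy 2.4.6 and pandas 2.3.3 were used, with edgeR 4.0.16 and DESeq2 1.42.0 under R 4.3.3 for alternative library scaling.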

Additional observations from a re-analysis of the deposited data

How the results depend on the processing

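No paired analysis was possible because the results come from no test between groups. The number of genes at 1 CPM ran from 12746 to 12862 with 1 library left out, was 12778 with TMM and 12808 with DESeq2 library sizes, and moved with the threshold to 7674 at 10 CPM and 21368 at 1 count. Among protein-coding genes only, the top 10 held 4.68%, the top 100 18.4% and mitochondrial genes 0.549%. Without mitochondrial genes these were 5.95% and 19.4%, and protein-coding genes held 94.9%. Per length over all genes, the top 10 held 55.8% and the top 100 64.7%, 50% lay in 3 genes and 90% in 2315, and protein-coding genes held 40.7%, the miRNA class 50.9%, mitochondrial genes 2.98% and pseudogenes 3.49%. By construction Gm23935 takes 50% of that total. Both of the following alternatives were chosen after seeing the data. Per length over genes of 200 bp or more, the values were 11.3%, 28.6%, 83.1% protein coding, 0% miRNA, 6.0% mitochondrial and 7.01% pseudogenes. Without Gm23935 the top 10 held 5.64%, the top 100 19.3%, protein-coding genes 94.9% and the miRNA class 0.0345%. Median coefficients of variation with 1 library left out were 18.3% to 20.2% at 1 to 10 CPM, 7.97% to 9.60% at 10 to 100 CPM and 5.00% to 6.70% at 100 to 1000 CPM, partly by construction with fewer libraries, and 20.7% at 1 to 10 CPM with at least 50 counts. List members at 0 rose from 24 to 68 when up to 3 counts were allowed and to between 36 and 44 with 1 library left out. Ribosomal protein pseudogenes made up 14 of the 24 and 48 of the 68. For the 26 gene lists, the share of the length-scaled total differed from the share of reads by over 1.5 times in 14 over all genes and in 17 over genes of 200 bp or more, and by over 1 SD in 22 and 23. For example, message storage and decay genes had 0.710% of reads and 0.280% per length over all genes, and histone genes 0.248% of reads and 1.40% per length over genes of 200 bp or more. Among protein-coding genes only, 14 of 24 moved by over 1 SD. With 1 library left out, 3 values moved by over 1.5 times: stroma, theca and oviduct markers from 0.000351% to 9.12e-05% without RFP 1, and Xist from 9.16e-05% to 1.99e-05% without RFP 1 and to 0.000137% without RFP 3. The count of list members at 1 CPM with a library left out was also added after seeing the data. A mean of 3 libraries cannot move by 1 SD when 1 is left out, and the authors' FPKM give the same ratio by construction, so neither says how stable the lists and pairs are. The cause was not tested beyond what is named. Counting depth limits genes at 0.1 to 1 CPM most, where counting error alone gives a coefficient of variation of 38.7%, against 11.1% at 1 to 10 CPM.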

Other observations

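The domain labels deposited with 8994 genes give another view of the RFP libraries. Genes with a protein kinase domain held 2.45% ± 0.0824 of the reads (SD, n = 3), and 251 of 358 reached 1 CPM, led by Ern1, the sensor kinase of the unfolded protein response, at 1899 CPM. RNA recognition motif genes held 2.10% ± 0.0218, led by Ncl. KRAB zinc-finger genes held 0.783% ± 0.0110 with 204 of 331 at 1 CPM or more, led by Zfp57. NACHT genes, the class of the NLR proteins, held 0.767% ± 0.0123 from 38 listed genes, led by Nlrp4f. WD40 genes held 0.776%, led by the histone chaperone gene Rbbp7 at 1828 CPM, and kinesin motors held 0.550%, led by the kinetochore motor Cenpe at 945 CPM.

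Most listed members of the receptor, keratin and Hox families stayed under 1 CPM, although most of those listed had reads. Listing itself leaves out genes below a total of 2 counts, as given above. Among protein-coding genes of GENCODE M21, 618 of 1135 olfactory and 178 of 333 vomeronasal receptor genes were not listed. The same held for 58 of 110 keratin and keratin-associated genes and 12 of 39 Hox genes, against 3884 of all 22028. Of 517 olfactory receptor genes listed 16 reached 1 CPM, led by Olfr976 with 627, 355 and 590 counts. Of 159 listed vomeronasal receptor genes 4 reached 1 CPM. Among 27 listed Hox genes 2 did, and Hoxa7 alone had 90.4, 97.6 and 85.2 CPM of a summed 96.0 for the family. Keratin and keratin-associated genes reached 1 CPM in 11 of 52 listed, led by Krt84, a hair keratin, at 45.7, 45.1 and 41.4 CPM. Of 37 listed proteasome subunit genes 36 reached 1 CPM, led by Psmd4 at 1085 ± 88.8 CPM.

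By chromosome, genes of chromosome 5 held the most reads, 7.40%, followed by chromosome 2 with 7.34%. The X chromosome held 2.66% ± 0.0294, with a median of 1.02 CPM over its listed protein-coding genes, and the 8 listed Y genes held 0.00157%. Chromosome 16 held 4.24% with Gm23935 and 2.52% without it.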
